A study of Homo sapiens with 32 samples.

Results

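Laminins are trimers of an α, a β and a γ chain that cells secrete into the basement membrane, the sheet of matrix under an epithelium. Laminin-332, which holds the α3 and β3 chains, is the laminin by which basal epithelial cells of skin and breast anchor themselves through hemidesmosomes, whereas laminins with the γ1 chain, such as those with α5 and β1 or β2, form the wider network of most basement membranes. TGFβ1 is a cytokine that induces matrix genes and epithelial-mesenchymal transition (EMT) in mammary epithelial cells.

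The genes described here are 8 laminin chains, chosen as those rows of the count table whose Ensembl identifier belongs to LAMA1, LAMA3, LAMA4, LAMA5, LAMB1, LAMB2, LAMB3 or LAMC1. They are 8 of the 17788 genes in the table and 8 of the 12 laminin chain genes that it lists. LAMA3 and LAMB3 are the laminin-332 chains among them, and the third chain of that trimer is not among the genes described. The rule names genes and uses no measured value, but the genes were chosen with earlier results of these data known.

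The 32 RNA-seq libraries came from MCF10A, an immortalized, non-tumorigenic line of human breast epithelium. Clones 27 and 2 carried wild-type JUNB (WT). Clones 1 and 65 carried JUNB edited with CRISPR/Cas9 (mut, a JUNB knock-out in the labels), an extended deletion which, by the study's methods, left a smaller JUNB polypeptide. All were derived from single cells, and each clone received solvent or 5 ng/ml TGFβ1 for 6, 24 or 72 h, in 2 replications. The 8 groups of genotype and treatment hold 4 libraries each. Solvent controls were kept for 72 h and all cells harvested together, by the study's methods. A library is named here by clone and replication, so that 27-2 is the second replication of clone 27, and the libraries of such a pair form a series. With 2 clones per genotype, an effect of the JUNB deletion and a difference between clones cannot be told apart.

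Library totals ranged from 39702412 to 54651906 counts, and levels are given as counts per 1000000 counts of the library (CPM). JUNB itself had 89.7 to 116.8 CPM in WT and 69.2 to 172 CPM in mut solvent libraries, so that the gene count of the edited gene is no check of genotype, and the names WT and mut follow the labels throughout. Of the basal epithelial markers KRT5 had at least 3260 CPM and TP63 at least 64.7 CPM in every library. Of 7 fibroblast markers 6 were in the table and their summed level was 15.2 to 25.0 CPM in solvent and 25.1 to 91.3 CPM after TGFβ1, with COL1A1 at 3.16 to 73.4 CPM and DCN at 4.34 to 33.5 CPM over all libraries, COL1A2 at most 0.364 CPM and COL3A1 at most 0.0804 CPM. Endothelial markers (2 of 4 in the table) summed to 5.62 to 15.1 CPM in WT and 21.1 to 27.0 CPM in mut solvent libraries, nearly all of it KDR, and leukocyte markers (3 of 4) to 9.98 to 19.0 and 22.1 to 28.1 CPM, nearly all of it CD14, with VWF at most 0.14 CPM and PTPRC at most 0.0498 CPM. The part of these markers in the results was not tested. Series 27-2 and series 1-2 were each left out in further fits, and results that change without these series are given with and without them. Over all tested genes, deviations of libraries from their group means correlated most within series 27-2 (mean 0.628) and least within series 1-2 (mean 0.122).

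Upstream sequences of the laminin-332 chains are shown because JUNB acts within AP-1, a dimeric transcription factor whose binding motif is TGACTCA, read as TGAGTCA on the other strand. The windows are the 250 bases before a RefSeq transcript start (GRCh38.p14), and capitals mark the motif. LAMA3 has a window at the start of its shorter transcript, chr18:23872770-23873019 on the plus strand, inside an intron of its longer transcripts, with motifs whose first base lies 125 and 69 bases before the start. LAMB3, on the minus strand, has a window before its first annotated base, chr1:209652426-209652675, with no motif. At an internal start the window chr1:209652330-209652579 held no motif either and is not printed. At a second internal start, chr1:209651395-209651624, a motif lies 67 bases before the start, and the 20 bases of that window that lie in an annotated exon are not printed.
LAMA3, plus strand: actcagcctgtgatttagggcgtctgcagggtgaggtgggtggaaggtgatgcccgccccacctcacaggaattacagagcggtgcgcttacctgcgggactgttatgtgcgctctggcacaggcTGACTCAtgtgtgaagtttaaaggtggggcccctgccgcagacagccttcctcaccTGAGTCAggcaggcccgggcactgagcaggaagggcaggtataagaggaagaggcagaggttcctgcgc
LAMB3, second internal start, minus strand: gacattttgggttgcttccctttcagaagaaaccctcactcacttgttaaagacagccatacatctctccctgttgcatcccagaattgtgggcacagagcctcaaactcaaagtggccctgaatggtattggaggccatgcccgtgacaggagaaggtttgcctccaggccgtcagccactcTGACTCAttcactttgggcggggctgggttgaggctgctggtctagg
LAMB3, first start, minus strand: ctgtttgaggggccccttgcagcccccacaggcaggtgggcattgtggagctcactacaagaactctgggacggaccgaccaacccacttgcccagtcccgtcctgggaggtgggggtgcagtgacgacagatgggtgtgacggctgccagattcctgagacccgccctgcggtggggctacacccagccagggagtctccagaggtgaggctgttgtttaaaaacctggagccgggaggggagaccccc

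Windows were found for 7 of the 8 genes, 9 windows in all, and 2 of these, the LAMA3 window and the window of the second internal LAMB3 start, held the motif when both strands were searched. Among all 35116 RefSeq windows of this length, 4.2% held it. The letters are a description of the sequence, and no binding was measured in these libraries.

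The chains differed widely in level. Per kb of annotated exon, the mean over the 32 libraries was 692.5 CPM for LAMB3 and 200.2 CPM for LAMA3. LAMC1 had 51.7 CPM per kb, and LAMA5, LAMB2 and LAMB1 had 27.5, 27.2 and 25.7 CPM per kb. LAMA1, the α1 chain best known from early embryos, had 1.05 CPM per kb. LAMA4, a chain best known from vessel walls and mesenchymal tissue, was close to the limit of detection. LAMB3 and LAMA3 were thus the most abundant chains by this measure, with the caveat that exon length depends on the annotation: with the longest transcript of each gene, LAMB1 had 70.9 CPM per kb and stood above LAMC1 with 55.03.

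LAMA3 encodes the α3 chain, which carries the integrin-binding part of laminin-332 (ENSG00000053747, GRCh38 chromosome 18, 23689453 to 23956222, plus strand). In WT solvent its level was 1313, 1898, 1369 and 989 CPM in 27-1, 27-2, 2-1 and 2-2. After 6 h of TGFβ1 these series had 1617, 2565, 2443 and 2316 CPM, after 24 h 5006, 6121, 5803 and 6290 CPM, and after 72 h 6274, 6013, 6601 and 7097 CPM. The solvent and 6 h ranges overlapped, whereas each library at 24 and 72 h had at least 5006 CPM and lay above all solvent and 6 h libraries.

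In mut cells LAMA3 started at 822.5, 1463, 855 and 1030 CPM in solvent (1-1, 1-2, 65-1 and 65-2). It had 1201, 1064, 1128 and 1354 CPM at 6 h, then 2778, 1797, 2312 and 2597 CPM at 24 h, and 2589, 3207, 2271 and 2645 CPM at 72 h. Hence the mut libraries at 24 and 72 h stood above all mut solvent libraries, and their highest value stayed below the lowest WT value at the same times.

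LAMB3 encodes the β3 chain of the same trimer (ENSG00000196878, chromosome 1, 209614870 to 209652425, minus strand). Its WT solvent levels were 1570, 2261, 1660 and 1271 CPM in the order of series given above. At 6 h they were 2878, 4106, 3317 and 3441 CPM, at 24 h 4638, 5771, 4963 and 5434 CPM, and at 72 h 5455, 5323, 5490 and 5916 CPM. All WT libraries of each TGFβ1 time lay above all WT solvent libraries.

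The mut libraries had 1257, 1867, 1105 and 1903 CPM of LAMB3 in solvent and 1917, 1823, 2025 and 2946 CPM at 6 h. At 24 h they had 2784, 2495, 2297 and 3634 CPM, and at 72 h 2394, 4732, 2278 and 4027 CPM. The 72 h libraries of the second replication thus had at least 4027 CPM in both mut clones and those of the first at most 2394 CPM, a gap that WT libraries at 72 h did not show. All mut libraries at 24 and 72 h had less LAMB3 than any WT library of the same time.

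**Figure D1:**
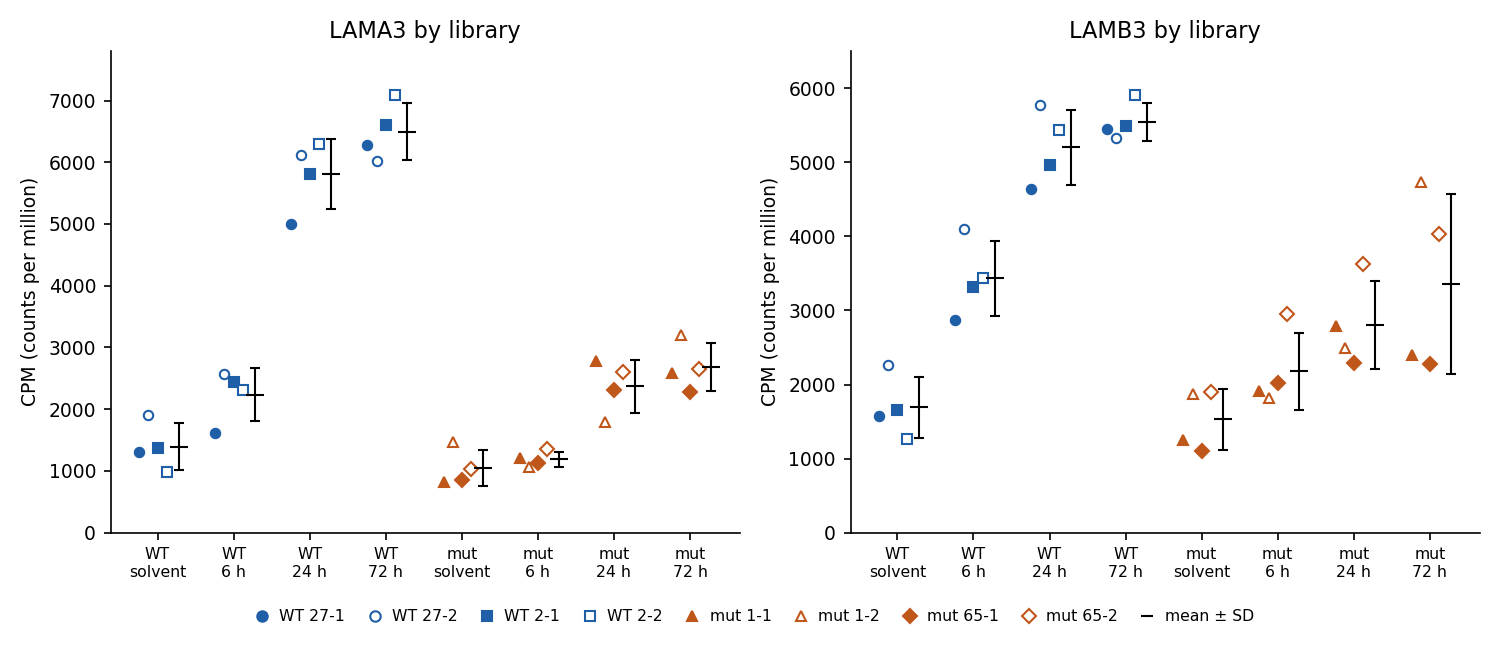
LAMA3 (left) and LAMB3 (right) in CPM on the vertical axis for the 4 libraries of each of the 8 groups; symbols mark the clone, open symbols the second replication, and bars the mean ± SD. WT libraries rose to 5006 to 7097 CPM of LAMA3 at 24 and 72 h, whereas mut libraries reached at most 3207 CPM, and LAMB3 in mut cells at 72 h split by replication number.

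The first comparison asks which chains TGFβ1 changed in WT cells. LAMB3 and LAMA3 rose at each time, LAMB1 rose at 24 and 72 h, LAMC1 rose at 24 h, and LAMA5 fell at 72 h under library-size scaling. LAMA3 rose by 0.70 ± 0.17 log2 (SE) after 6 h, by 2.09 ± 0.18 after 24 h and by 2.26 ± 0.18 after 72 h, the last a 4.79-fold change (limma-voom adjusted p-values 0.00544, 2.30e-10 and 7.99e-11). LAMB3 rose by 1.04 ± 0.21, 1.65 ± 0.21 and 1.74 ± 0.21 log2, or 2.06-fold at 6 h and 3.35-fold at 72 h (adjusted p-values 0.000745, 1.87e-07 and 9.21e-08). Within the series, both genes were higher than in solvent in 4 of 4 series at each time. At 6 h the LAMA3 change was 1.23-fold and 1.35-fold in the series of clone 27, and 1.78-fold and 2.34-fold in those of clone 2.

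Of the 7 members that passed the low-count filter, 2 were called at 6 h, both higher, where 17% of 14865 tested genes were called and 5.13% were called and higher. At 24 h 4 were called, all higher (all genes: 52.1% called, 14.1% called and higher). At 72 h 4 were called, 3 higher and 1 lower (all genes: 52.2% called, 13.9% called and higher). The median log2 change of all tested genes was -0.18 at 24 h and -0.19 at 72 h with library-size scaling, and close to 0 with trimmed mean of M-values (TMM) factors. Changes are therefore read relative to that shift. With TMM factors, 6 members were called at 24 h and 5 at 72 h, in each case higher. The share of all genes called with TMM factors is not given here, so these counts are not read as a result about the members.

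Across the same interval mut cells showed smaller values for the laminin-332 chains. LAMA3 changed by 0.22 ± 0.17 log2 at 6 h (adjusted p 0.481) and rose by 1.20 ± 0.17 at 24 h and 1.39 ± 0.17 at 72 h, or 2.30-fold and 2.62-fold (adjusted p-values 1.18e-05 and 1.05e-06). LAMB3 changed by 0.52 ± 0.21 log2 at 6 h (adjusted p 0.119, or 0.0113 in the fit with series as replicate block) and rose by 0.89 ± 0.21 at 24 h and 1.097 ± 0.208 at 72 h, or 1.85-fold and 2.14-fold (adjusted p-values 0.00251 and 0.000250). In series 1-2, whose solvent library had the highest LAMA3 level of the mut solvent group, LAMA3 was 0.727-fold its solvent level at 6 h and 1.23-fold at 24 h, while the other 3 mut series stood at 2.52-fold to 3.38-fold at 24 h.

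At 6 h none of the 7 tested members was called in mut cells by limma-voom, edgeR or DESeq2, where limma-voom called 7% of all genes. Of the 7, LAMB3 alone had an unadjusted limma-voom p under 0.05, and the share of all genes at that threshold is not given here. At 24 h 3 were called, all higher (23.8% of all genes called, 6.75% called and higher), and at 72 h 3, all higher (24.1% and 7.81%). These were LAMA3, LAMB3 and LAMC1 at both times.

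**Figure D2:**
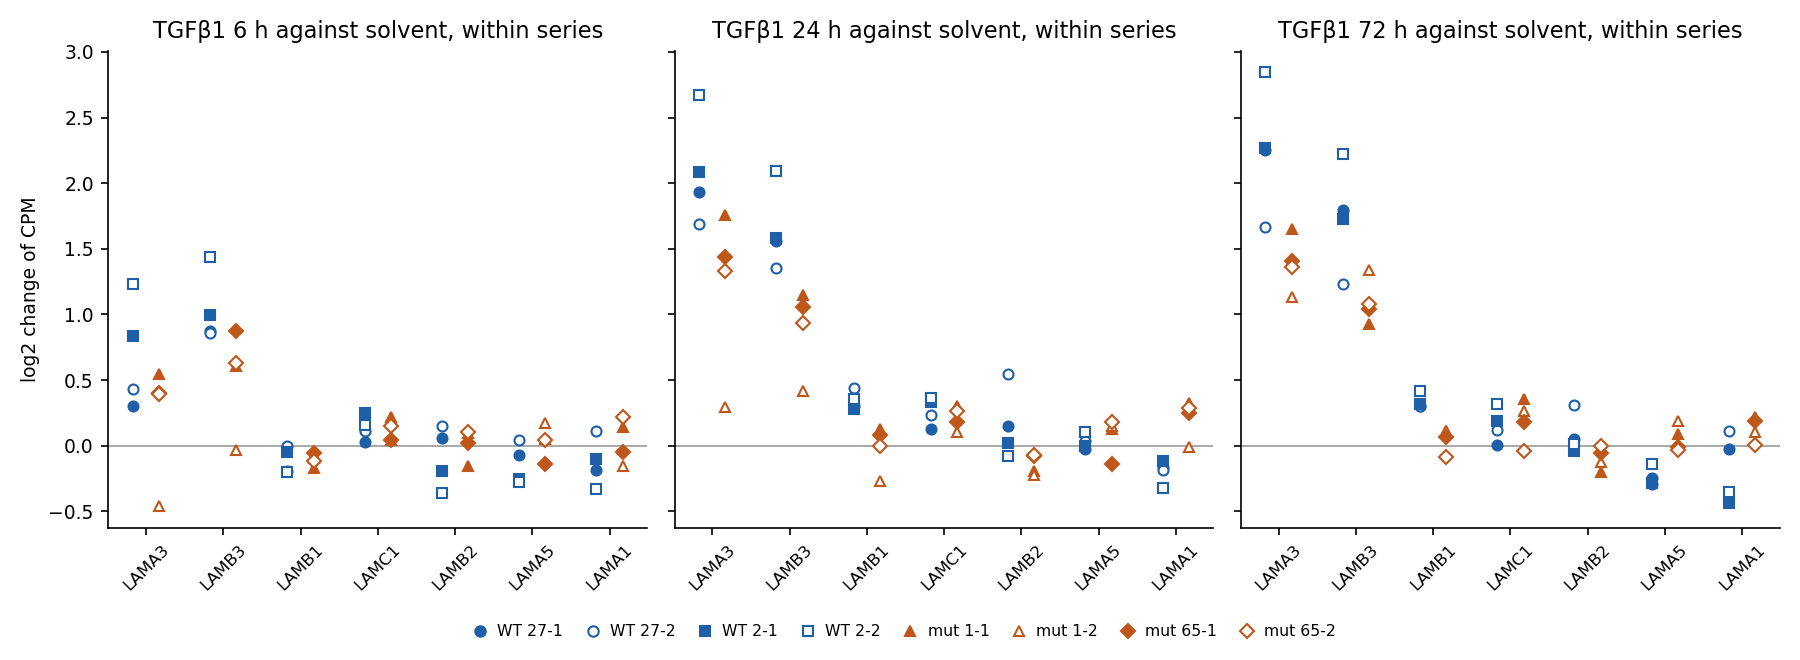
Log2 change of CPM against the solvent library of the same series, at 6, 24 and 72 h (panels), for the 7 tested chains on the horizontal axis, with WT in blue and mut in orange. LAMA3 and LAMB3 lie above the other chains in WT series at each time, and at 72 h the WT values of LAMA3 (1.66 to 2.84) lie above all mut values (1.13 to 1.65).

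Genotypes were then compared at each treatment. Without TGFβ1, LAMA3 was -0.42 ± 0.17 log2 in mut against WT (adjusted p 0.111) and LAMB3 -0.15 ± 0.20 (adjusted p 0.692), with overlapping libraries. The LAMA3 difference in solvent was called without series 1-2 (-0.59, adjusted p 0.0125), without mut solvent 1-2 alone (-0.59, adjusted p 0.0187) and without WT solvent 2-2 alone (-0.57, adjusted p 0.0289). With TGFβ1 both genes were lower in mut cells. LAMA3 was lower by 0.90 ± 0.17, 1.31 ± 0.18 and 1.29 ± 0.18 log2 at the successive times, that is 1.86-fold, 2.47-fold and 2.44-fold (adjusted p-values 0.000379, 2.20e-06 and 2.29e-06), and lower in 4 of 4 mut libraries than in any WT library at each of the 3 times.

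LAMB3 was lower in mut cells by 0.67 ± 0.21, 0.91 ± 0.21 and 0.80 ± 0.21 log2 in the same order, that is 1.60-fold, 1.88-fold and 1.74-fold (limma-voom adjusted p-values 0.0206, 0.00127 and 0.00376). The 6 h call was lost without series 27-2 (-0.58, adjusted p 0.0607) or without series 1-2 (-0.60, adjusted p 0.0503), and without any of WT 27-2, mut 1-1, mut 1-2 or mut 65-1 at that time (adjusted p up to 0.0708). By replication number, the difference in mean log2 LAMB3 level, mut minus WT, at 72 h was -1.23 in the first replication and -0.36 in the second. At 24 h it was -0.92 and -0.90. For LAMA3 these differences at 72 h were -1.41 and -1.17, and at 24 h -1.09 and -1.52. Each of these holds 2 libraries per genotype, which did not overlap.

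Of the 7 tested members 1 was called between the genotypes in solvent, LAMB1, which was higher in mut (12.7% of all genes called). At 6 h 4 were called, LAMB1 and LAMB2 higher and LAMA3 and LAMB3 lower (21.4%). At 24 h and at 72 h LAMA3 and LAMB3 were called, both lower, where 36.9% and 39.2% of all genes were called and 12.2% and 13.2% were called and lower.

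**Figure D3:**
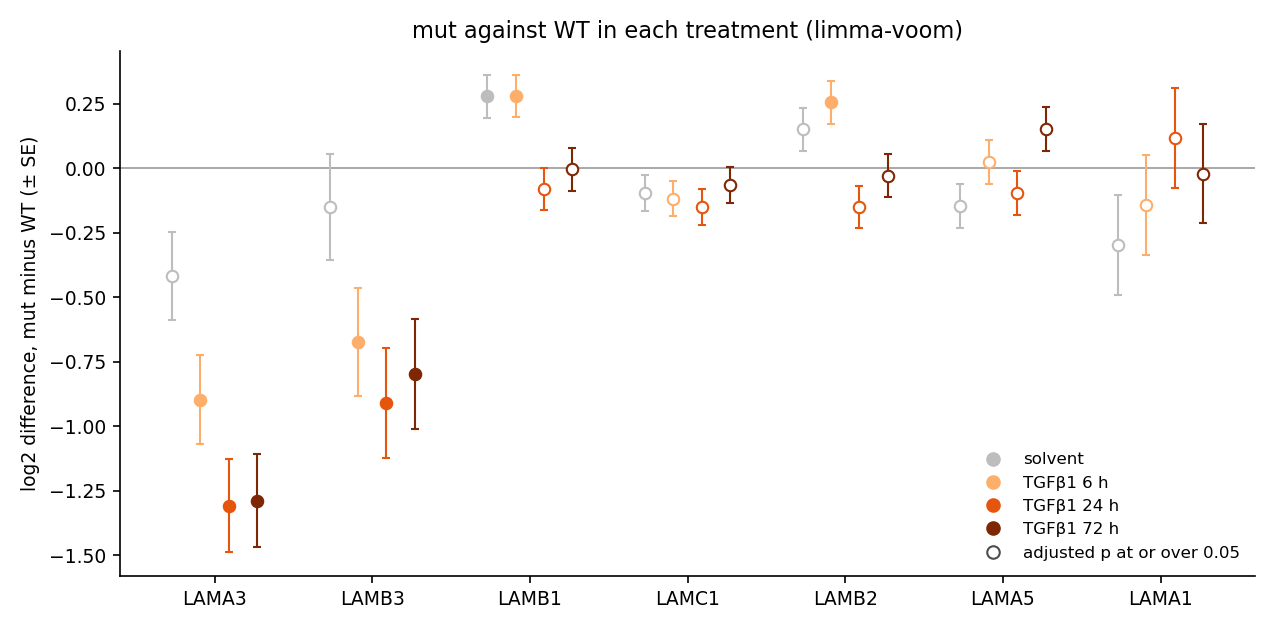
Log2 difference of mut minus WT on the vertical axis (limma-voom, bars ± SE) for the 7 tested chains in solvent and after TGFβ1, with open circles where the adjusted p was at or over 0.05. LAMA3 reached -1.31 and LAMB3 -0.91 at 24 h, while the filled values of LAMB1 in solvent and at 6 h were 0.28 in both.

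Whether the TGFβ1 change itself differed between genotypes was tested by an interaction term that subtracts the change in WT from that in mut cells. For LAMA3 it was -0.48 ± 0.24 log2 at 6 h (adjusted p 0.996), -0.89 ± 0.25 at 24 h (adjusted p 0.0225) and -0.87 ± 0.25 at 72 h (adjusted p 0.0205). Without series 1-2 the 24 h value was -0.59 (adjusted p 0.128) and the 72 h value -0.78 (adjusted p 0.0237). The 24 h call was also lost when WT solvent 2-2, mut solvent 1-2 or mut 24 h 1-2 was left out, with an adjusted p of up to 0.0608. The 72 h call was lost when WT solvent 2-2, mut solvent 1-2 or mut 72 h 65-1 was left out, with an adjusted p of up to 0.0554.

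For LAMB3 the interaction was -0.52 ± 0.29, -0.76 ± 0.29 and -0.65 ± 0.29 log2 (adjusted p-values 0.999, 0.101 and 0.154). In the fit with series as replicate block LAMB3 was called at 24 h (adjusted p 0.00727) and 72 h (0.0175), and in the fit on clone sums at neither (adjusted p 0.0514 and 0.0846). The interaction at 24 h called LAMA3 and LAMB1 of the 7 tested members, both lower (9.65% of all genes called), and at 72 h LAMA3 alone (12.3%). At 6 h none was called by limma-voom, edgeR or DESeq2, where limma-voom called 0.074% of all genes, and none had an unadjusted limma-voom p under 0.05. The comparisons share libraries: the interaction uses the same solvent groups as the changes within each genotype.

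Both chains also changed relative to each other. The LAMA3 level per kb was 0.263 ± 0.00913 of the LAMB3 level per kb in WT solvent (SD, n = 4), 0.208 ± 0.0237 after 6 h, 0.358 ± 0.0175 after 24 h and 0.375 ± 0.0116 after 72 h. The ranges of WT solvent, 6 h and 24 h did not overlap, and those of 24 and 72 h did. In mut cells the ratio was 0.221 ± 0.0366, 0.179 ± 0.0227, 0.276 ± 0.0527 and 0.274 ± 0.0698. At 72 h it was 0.347 and 0.320 in the first replication of clones 1 and 65, and 0.217 and 0.211 in the second, so that the mut libraries grouped by replication number. No test was run on this ratio.

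LAMA3 and LAMB3 together made up 77.7% ± 4.64 (SD, n = 4) of the summed CPM per kb of the 8 chains in WT solvent. Their share was 87.5% ± 1.48 after 6 h, 91.2% ± 0.454 after 24 h and 92.4% ± 0.230 after 72 h. For mut cells the share was 75.0% ± 5.05, 80.4% ± 2.51, 84.9% ± 1.65 and 86.2% ± 3.85 in the same order. The other 6 chains summed to 127 ± 4.37 CPM per kb in WT solvent and 136 ± 9.64 at 72 h, and to 129 ± 3.47 and 135 ± 4.56 in mut cells. In WT cells at 24 h they summed to 146 ± 6.925 CPM per kb (137 to 153), above all WT solvent libraries (122 to 132). The summed level of all 8 chains went from 587 ± 112 to 1778 ± 95.4 CPM per kb in WT cells and from 530.5 ± 104.5 to 1043 ± 284 in mut cells.

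**Figure D4:**
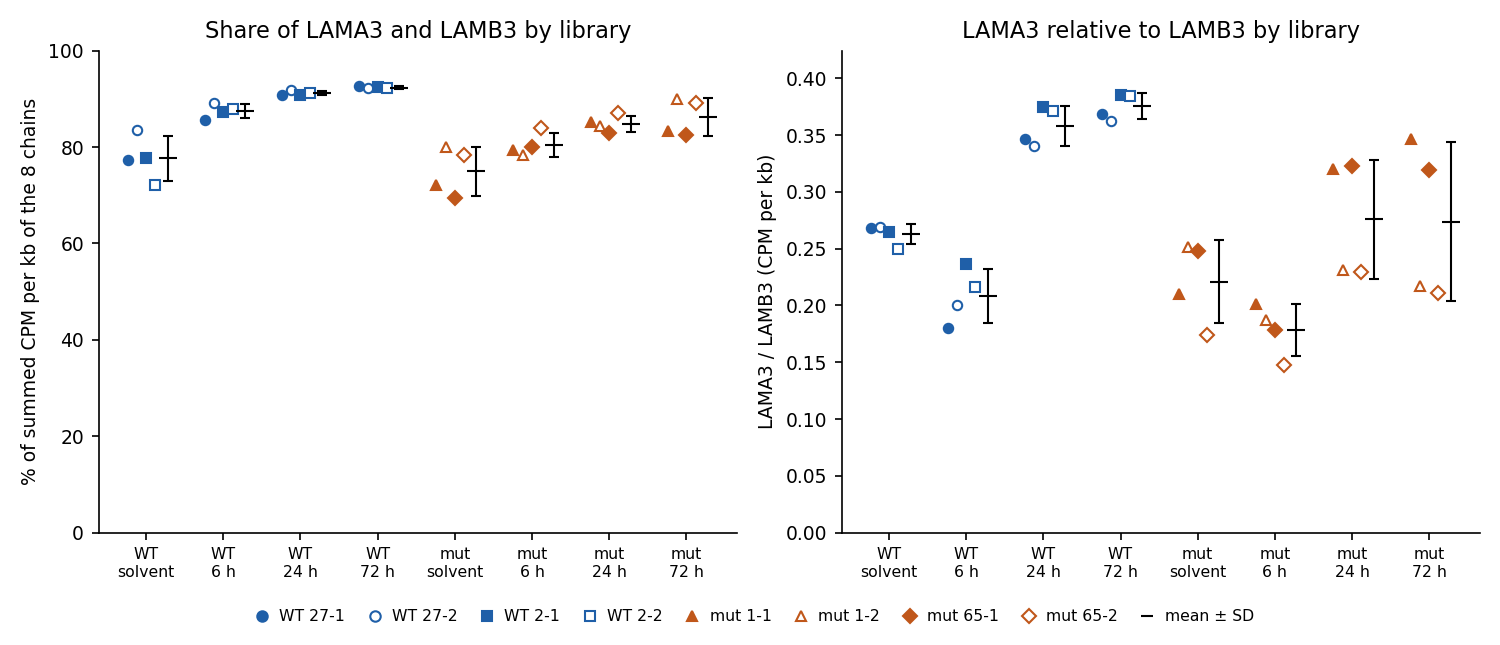
Share of LAMA3 and LAMB3 in the summed CPM per kb of the 8 chains in percent (left) and LAMA3 level divided by LAMB3 level, both in CPM per kb (right), by library, with mean ± SD. The WT share rose from 77.7% to 92.4%, and the mut ratios at 24 and 72 h fell apart by replication number (filled against open symbols).

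LAMB1 encodes the β1 chain, a partner of γ1 laminins (ENSG00000091136, chromosome 7, 107923799 to 108003213, minus strand). In WT solvent it had 393, 390.5, 424 and 444 CPM, at 24 h 484, 528, 514 and 570 CPM, and at 72 h 485, 481, 528.5 and 592 CPM, with no overlap of either time with solvent. It rose by 0.34 ± 0.08 log2 at 24 h and 0.33 ± 0.08 at 72 h (adjusted p-values 0.000936 and 0.00131). In mut cells it had 461, 518, 470 and 557 CPM in solvent and 493 to 561 CPM at 72 h, and its change was -0.02 ± 0.08 at 24 h and 0.05 ± 0.08 at 72 h (adjusted p-values 0.919 and 0.699). The value at 24 h was 0.07 with TMM factors and without series 1-2.

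All 4 mut solvent libraries had more LAMB1 than all WT solvent libraries, a difference of 0.28 ± 0.08 log2 (adjusted p 0.0250), and at 6 h it was 0.28 ± 0.08 (adjusted p 0.0158). The solvent call was lost without series 27-2 (0.25, adjusted p 0.0818) or without series 1-2 (0.26, adjusted p 0.0528), and without any of WT 27-1, WT 27-2, mut 1-2 or mut 65-2 in solvent (adjusted p up to 0.117). The 6 h call was lost without WT 27-1 or mut 65-2 at that time (adjusted p up to 0.0731). On clone sums neither the solvent nor the 6 h difference was called (adjusted p 0.0718 and 0.0522). The interaction of LAMB1 was -0.36 ± 0.12 log2 at 24 h (adjusted p 0.04997) and -0.28 ± 0.12 at 72 h (adjusted p 0.116, or 0.0211 with the replicate block). The 24 h interaction call rested on many single libraries: it was lost in 16 of the alternative fits, among them without series 27-2 (adjusted p 0.119) and without series 1-2 (0.205). By series, the WT changes of LAMB1 at 24 h were 0.28 to 0.44 log2 and the mut changes -0.27 to 0.13, without overlap. LAMB1 shares 300 exon bases with DLD on the opposite strand, and the reads of both genes cannot be told apart there without strand.

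LAMC1 encodes the γ1 chain shared by most laminins (ENSG00000135862, chromosome 1, 183023420 to 183145592, plus strand). Its WT levels were 390 to 435 CPM in solvent and 440 to 529 CPM at 24 h, and its mut levels were 368 to 393 and 413.5 to 471 CPM, with no overlap between solvent and 24 h in either genotype. It rose at 24 h by 0.27 ± 0.07 log2 in WT and 0.21 ± 0.07 in mut cells (adjusted p-values 0.00198 and 0.0274). At 72 h the values were 0.16 ± 0.07 in WT (adjusted p 0.0586, 0.0236 with the replicate block, or 0.32 log2 with an adjusted p of 0.00128 with TMM factors) and 0.19 ± 0.07 in mut cells (adjusted p 0.0471). That mut call at 72 h was lost without series 27-2 (0.19, adjusted p 0.0501), without series 1-2 (0.16, adjusted p 0.183), and without any mut solvent library or mut 1-1, 1-2 or 65-1 at 72 h (up to 0.146). The mut call at 24 h was lost without mut solvent 1-1, mut 24 h 1-1 or mut 24 h 65-2 (up to 0.0904). Its interaction was -0.06 ± 0.10 log2 at 24 h and 0.03 ± 0.10 at 72 h (adjusted p-values 0.795 and 0.878). Between genotypes it was -0.15 ± 0.07 at 24 h (adjusted p 0.0869), which TMM factors put at -0.24 (adjusted p 0.0178).

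LAMA5 encodes the α5 chain of the common epithelial laminins (ENSG00000130702, chromosome 20, 62307955 to 62367312, minus strand). In WT solvent it had 384 to 440 CPM and at 72 h 314 to 380 CPM, lower in 4 of 4 series. The change was -0.24 ± 0.09 log2 (adjusted p 0.0192) with library-size scaling and -0.08 (adjusted p 0.484) with TMM factors, so that the call depends on the scaling. It was also lost without WT solvent 2-1 or WT 72 h 27-2 (adjusted p up to 0.0891). At 24 h the WT change was 0.03 ± 0.09 (adjusted p 0.805), or 0.21 with TMM factors (adjusted p 0.0490). The interaction at 72 h was 0.30 ± 0.12 (adjusted p 0.104, or 0.0137 with the replicate block), and 0.21 with TMM factors (adjusted p 0.304). In mut solvent libraries the first replication had 405 and 434 CPM and the second 328 and 352, and at 72 h 432 and 430.5 against 374 and 343, an order opposite to that of LAMB3. LAMA5 shares 244 exon bases with ADRM1 and 118 with LAMA5-AS1 on the opposite strand.

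LAMB2 encodes the β2 chain, which takes the place of β1 in some basement membranes (ENSG00000172037, chromosome 3, 49121114 to 49133118, minus strand). It had 147 to 214 CPM over the WT and 161 to 224 CPM over the mut libraries. Its changes after TGFβ1 lay between -0.14 and 0.16 log2 in both genotypes with no call. With TMM factors it was called higher in WT cells at 24 h (0.34, adjusted p 0.001002) and 72 h (0.24, adjusted p 0.0142). Between genotypes it was called at 6 h, 0.25 ± 0.08 higher in mut (adjusted p 0.0268). This call was lost without series 1-2 (adjusted p 0.0529), and without any of WT 27-2, WT 2-2, mut 1-2 or mut 65-2 at that time (adjusted p up to 0.119). Clone sums (adjusted p 0.1045) and the fit on the compared groups alone (0.0551) did not call LAMB2 at 6 h either. At 24 h it was -0.15 ± 0.08 in mut against WT (adjusted p 0.158), and was called lower in mut with TMM factors (-0.24, adjusted p 0.0231), edgeR (-0.235, adjusted p 0.0247) and DESeq2 (-0.23, adjusted p 0.0217). Its interaction at 24 h was -0.30 ± 0.12 (adjusted p 0.103). The replicate block called it (adjusted p 0.0326), as did TMM factors (-0.39, adjusted p 0.0389), edgeR (adjusted p 0.0430) and DESeq2 (adjusted p 0.0229).

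LAMA1 (ENSG00000101680, chromosome 18, 6941742 to 7117797, minus strand) was not called in any of the 13 comparisons. Series 27-1 had 11.2 to 12.8 CPM in each treatment, whereas the other WT libraries had 14.4 to 23.2 CPM and the mut libraries 13.2 to 19.8 CPM. Its interaction at 24 h was 0.41 ± 0.27 log2 (adjusted p 0.395), or 0.42 in the fit with the replicate block (adjusted p 0.0228) and 0.32 with TMM factors (adjusted p 0.568). By series the changes at 24 h were -0.32 to -0.12 in WT and -0.01 to 0.33 in mut cells.

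LAMA4 (ENSG00000112769, chromosome 6, 112107931 to 112254939, minus strand) had 0 to 12 counts per library and 111 counts in all, too few for the low-count filter and for a test. It had 0 counts in 12 libraries, 1 to 3 counts in 6 and more in 14. A count of 0 allows up to 3 counts, or 0.0549 to 0.0756 CPM at these totals, from counting error alone. The 16 WT libraries held 79 of its counts and the 16 mut libraries 32, of which 18 were in mut solvent 1-1 and 1-2.

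**Figure D5:**
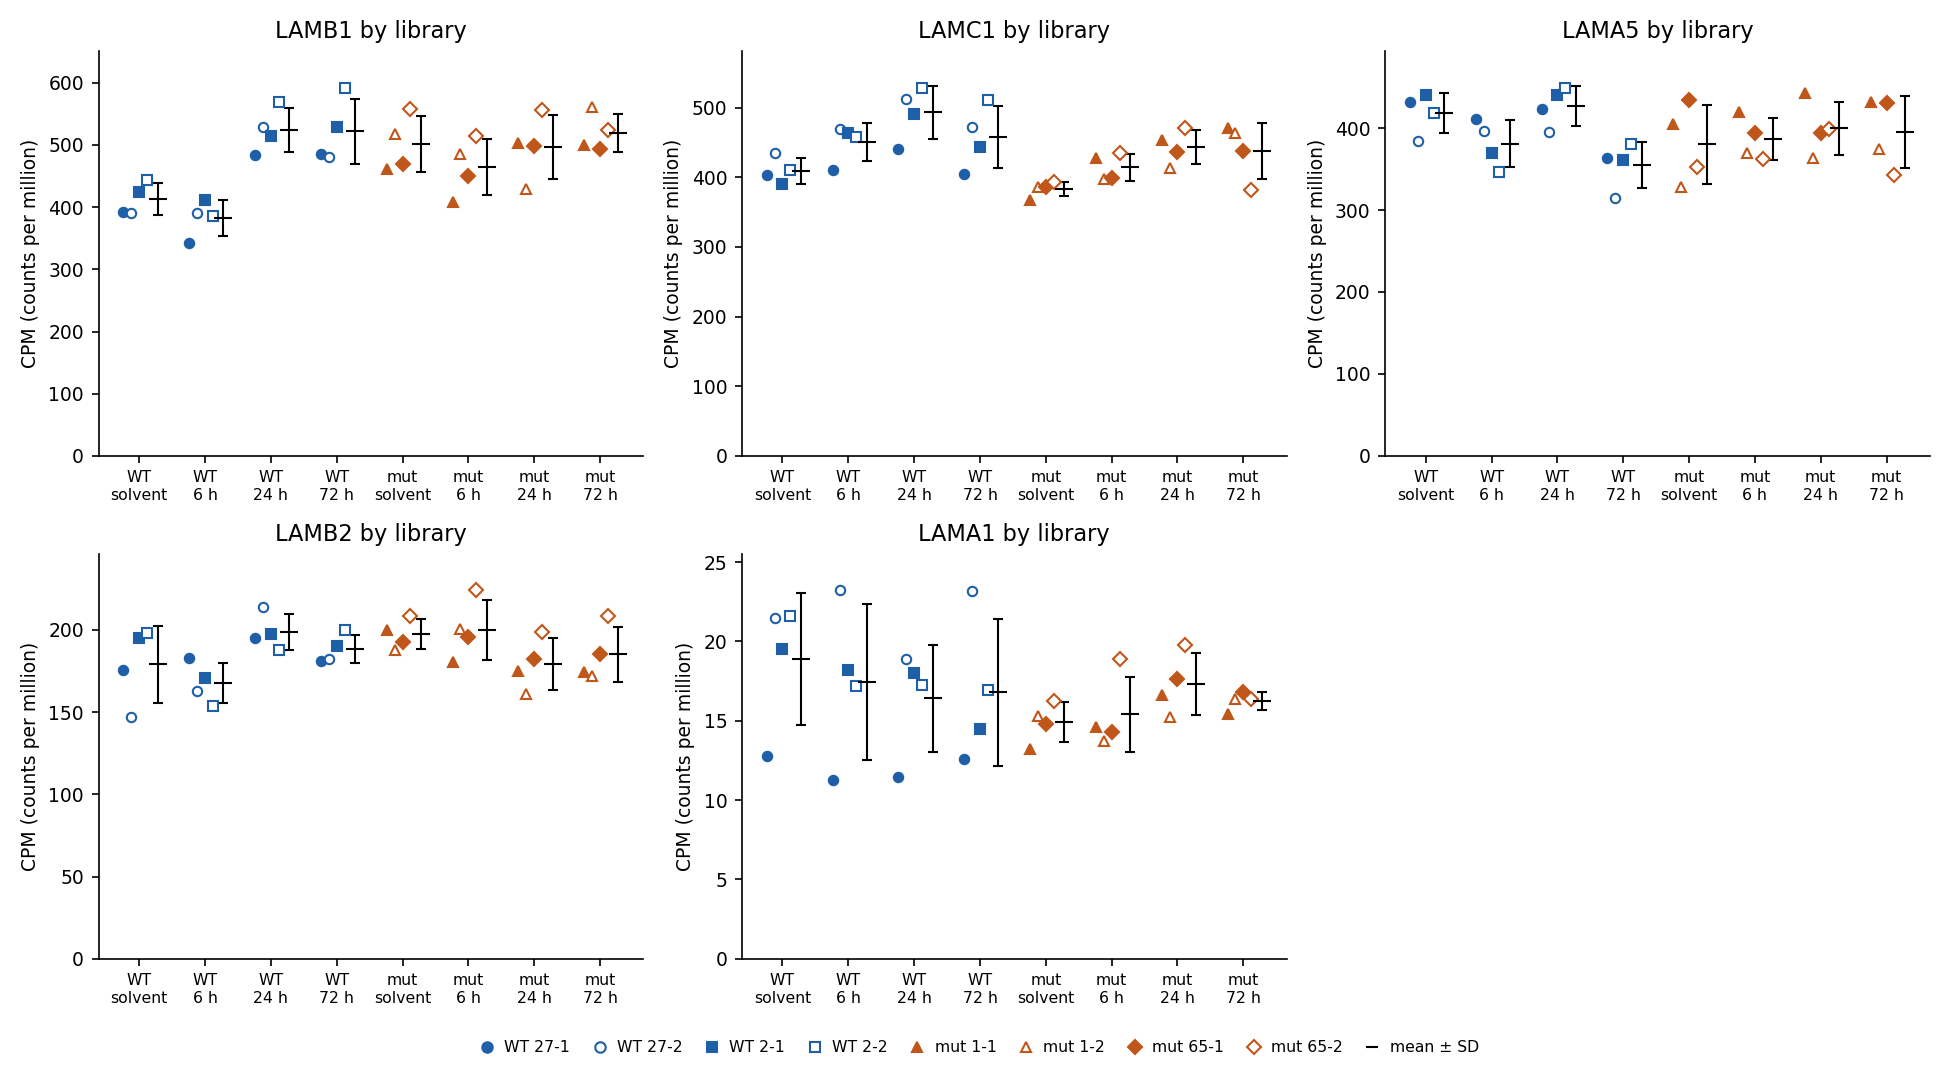
LAMB1, LAMC1, LAMA5, LAMB2 and LAMA1 in CPM on the vertical axis for the 4 libraries of each group, marked as in the plot of LAMA3 and LAMB3, with mean ± SD. LAMB1 in WT cells moved from 390.5 to 444 CPM in solvent to 484 to 570 CPM at 24 h, while its mut libraries began at 461 to 557 CPM.

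Ordered by group mean, LAMA3 was lowest in mut solvent and highest in WT at 72 h, and only the step from mut 72 h (2678 ± 389 CPM, SD, n = 4) to WT 24 h (5805 ± 570 CPM) separated neighbouring groups without overlap. For LAMB3 the only such step was from WT 6 h (3436 ± 508 CPM) to WT 24 h (5201 ± 501 CPM). For LAMA1, LAMA5, LAMB1, LAMB2 and LAMC1 all neighbours in the order overlapped.

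Over the 32 libraries, which share groups and depth, Pearson's r of log2 (CPM + 0.5) between LAMA3 and LAMB3 was 0.932, and 0.755 around the group means. LAMC1 had 0.750 with LAMA3 and 0.728 with LAMB3, and 0.521 and 0.277 around the group means, while LAMA5 had -0.099 and -0.256. Around the group means LAMA5 and LAMB3 had -0.557. These values are descriptions without a test. Likeness was searched among 9637 genes with at least 10 CPM, with all laminin chain genes left out, also those that are not members. The genes most like LAMA3 over the 32 libraries were SLC46A3 (r 0.979) and LPXN (0.969), and those most like LAMB3 were FBLIM1 (0.964) and ANGPTL4 (0.962). KIRREL1 (0.884) and RASAL2 (0.857) were nearest to LAMC1, and WTIP (0.836) and FKBP9 (0.806) to LAMB1. For LAMA1, LAMA5 and LAMB2 the nearest genes reached at most 0.723, 0.714 and 0.706, with ERCC1, LSS and MIB2, followed by SLC35E4 (0.697) for LAMA1 and SYVN1 (0.687) for LAMB2.

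Genes that bind, anchor or cleave laminins were counted from 4 lists. ITGA6, ITGB4 and CD151 are in both the receptor list and the hemidesmosome list, so the counts of these lists are not independent. The counts at 72 h stand beside 52.2% of all tested genes called in WT cells (13.9% called and higher) and 24.1% in mut cells (7.81%), and the list medians beside -0.19 and -0.09 log2 for all genes. Of 13 laminin receptors, 6 rose and 5 fell in WT cells at 72 h, and 5 rose and 3 fell in mut cells, with median changes of 0.09 and 0.16 log2. ITGA2, the α2 integrin chain, rose by 1.18 ± 0.16 log2 in WT (adjusted p 4.98e-07) and by 0.68 ± 0.16 in mut cells (adjusted p 0.00183), and CD151, a tetraspanin partner of laminin-binding integrins, by 0.79 ± 0.09 and 0.63 ± 0.09. BCAM, a receptor for laminins with α5, changed by -2.34 ± 0.25 in WT and -2.47 ± 0.17 in mut cells, and the proteoglycan SDC1 by -0.45 ± 0.09 and -0.56 ± 0.09, all called.

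Among the 9 genes of hemidesmosomes and anchoring fibrils, 7 rose and 2 fell in WT cells at 72 h (median 0.61 log2), and 6 rose and 2 fell in mut cells (median 0.49). COL7A1, the collagen of anchoring fibrils, rose by 1.41 ± 0.16 log2 in WT and 1.51 ± 0.16 in mut cells (adjusted p-values 3.66e-08 and 8.99e-08), with an interaction of 0.10 ± 0.23 (adjusted p 0.835). KRT14 rose by 1.48 ± 0.32 and 1.58 ± 0.32, while DST, a plakin of the hemidesmosome, changed by -0.91 ± 0.11 and -0.61 ± 0.11 and KRT5 by -0.77 ± 0.10 and -0.41 ± 0.10, all called.

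Of 18 tested basement membrane partners (20 listed), 8 rose and 2 fell in WT cells at 72 h (median 0.28 log2) and 5 rose and 1 fell in mut cells (median 0.13). In mut against WT at 72 h 2 were higher and 8 lower, where 39.2% of all genes were called and 13.2% were called and lower. COL4A1 and COL4A2, both collagen IV chains of the basement membrane, rose by 2.55 ± 0.23 and 1.956 ± 0.172 log2 in WT and by 2.08 ± 0.23 and 1.74 ± 0.17 in mut cells. HSPG2, or perlecan, changed by -0.50 ± 0.11 and -0.68 ± 0.11. COL4A6 changed by -0.27 ± 0.11 in WT cells (adjusted p 0.0390), or -0.11 with TMM factors (adjusted p 0.459).

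The list of laminin-cleaving proteases had 13 tested genes of 14 listed, of which 9 rose and 1 fell in WT cells at 72 h (median 1.49 log2) and 7 rose and 1 fell in mut cells (median 0.38). MMP2, a gelatinase, rose by 3.87 ± 0.38 in WT and 1.68 ± 0.28 in mut cells, with an interaction of -2.19 ± 0.47 (adjusted p 0.00275). MMP9 rose by 3.28 ± 0.38 in WT and 2.87 ± 0.82 in mut cells, with an interaction of -0.40 ± 0.91 (adjusted p 0.827), and was lower in mut than in WT cells at 72 h by 3.15 ± 0.36 (adjusted p 8.91e-08). Its mut levels were low, at 0.21 to 2.52 CPM in solvent and 1.71 to 6.69 CPM at 72 h. In WT they were 1.36 to 5.0 and 28.98 to 49.97 CPM. ST14, a membrane serine protease, changed by -0.69 ± 0.15 in WT cells (adjusted p 0.000260) and -0.41 ± 0.14 in mut cells (adjusted p 0.0387, or 0.0900 with TMM factors). The interaction at 72 h called 4 proteases and 2 basement membrane partners, all lower, and 1 gene of the hemidesmosome list, also lower (12.3% of all genes called). With the replicate block it called 6 proteases, all lower, 2 basement membrane partners higher and 5 lower, and 2 hemidesmosome genes higher and 1 lower, COL4A6 (0.40 log2, adjusted p 0.000381) and KRT5 (0.37, adjusted p 0.0141) being among the higher ones. The share of all genes called with the block is not given here, so these counts are not read as a result about the lists.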

How the data were processed

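The values deposited by the authors are raw counts of reads per gene in 32 libraries, not normalized. By the study's methods, reads were trimmed with Trimmomatic and aligned and counted with STAR on GRCh38 in the Ensembl version. The annotation release and strand setting are not given in the sources used here, and the library kit keeps no strand. Rows were named and located with GENCODE release 44, whose exon unions gave lengths per kb. All 17788 genes held at least 4 counts in all.

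Groups came from the labels. Counts scaled by library size were fitted with limma-voom (limma 3.58.1, R 4.3.3) over all 32 libraries with one coefficient per group, on the 14865 genes kept by filterByExpr (edgeR 4.0.16, at least 10 counts in a group's libraries and 15 in total). Tests were two-sided, with Benjamini-Hochberg adjustment over these genes and a call at an adjusted p under 0.05. Alternatives were TMM factors, edgeR's quasi-likelihood fit, DESeq2 1.42.0 with its Wald test, other filters, fits on the groups compared, sums per clone, leaving out libraries or series, and the series as a replicate block (the replication number for mut against WT). The block with TMM factors was added after seeing the data. Pairing rests on the clone and replication in the labels. Over 48 pairs of libraries of a series, deviations from group means had a mean correlation of 0.302 and a lowest of 0.0296. No pair of libraries within a group agreed within sampling noise (chi-square over genes at least 11.6 per degree of freedom), and each was counted separately. The study describes its replicates as independent biological replicates, here nested in clones, and p-values measure the spread between these libraries. The script was tested on simulated counts with 200 changed genes.

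The members and the lists of related genes were chosen with earlier results of these data known. Every member was named, together with the 2 largest rises and 2 largest falls per list among genes called in WT cells at 72 h with at least 10 CPM, and the 2 genes, other than laminin chains, most like each member by Pearson's r. For LAMA5 only the nearest of these is given, and the other is not reported here.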

Additional observations from a re-analysis of the deposited data

Results flagged for a closer look

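LAMA1 in the mut 6 h library 65-2 had 18.9 CPM, while the other 3 libraries of that group had 13.8 to 14.6 CPM. Its gap to the nearest library exceeded Dixon's 95% critical value for 4 samples. It was the only such value among 56 groups of member levels examined, and chance flags about 1 in 20 groups.

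The TGFβ1 change differed between mut and WT cells by the interaction test for LAMA3 at 24 h (-0.89 log2) and 72 h (-0.871 log2) and for LAMB1 at 24 h (-0.359 log2). Of these, the LAMB1 value had an adjusted p of 0.04997 (limma-voom), and the LAMA3 value at 24 h was -0.59 without series 1-2, with an adjusted p of 0.128.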

How the results depend on the processing

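Over the planned and added alternatives 1897 member values were recomputed, of which 1706 kept direction and side of the threshold, 68 lost a call, 54 gained one and 69 changed sign. Of 28 called member results 18 were never lost, among them all calls of LAMA3 and LAMB3 against solvent and all calls of LAMA3 between genotypes. No value that changed sign was called (lowest adjusted p 0.461). In log2, those with TMM factors, edgeR, DESeq2 and TMM factors plus block were LAMB1 in mut cells at 24 h (0.071, 0.072, 0.083 and 0.07), the LAMB1 interaction at 6 h (-0.018 in each), the LAMA5 interaction at 24 h (-0.042, -0.047, -0.038 and -0.041) and the LAMC1 interaction at 72 h (-0.055, -0.055, -0.067 and -0.054). LAMA1 was 0.008 with TMM factors and 0.012 with DESeq2 in WT cells at 72 h, and -0.01 with edgeR and -0.004 with DESeq2 in mut against WT at 24 h. Clone sums put the LAMB1 interaction at 6 h at -0.001. Without series 1-2, LAMB1 in mut cells at 24 h was 0.07, LAMA5 and LAMB2 in mut cells at 6 h -0.015 and -0.01, LAMB2 in mut against WT at 72 h 0.004, and the LAMB1 and LAMC1 interactions at 6 h -0.004 and 0.001. Without series 27-2, in mut against WT, LAMB3 in solvent was 0.0, and LAMA1 was 0.012 at 6 h and 0.158 at 72 h. Without single libraries, LAMA1 ranged from -0.296 to 0.082 in WT and from -0.063 to 0.094 in mut cells at 6 h, LAMA5 from -0.012 to 0.065 in WT cells at 24 h, LAMB2 from -0.009 to 0.134 in WT cells at 72 h, LAMA5 from -0.036 to 0.099 and LAMB2 from -0.04 to 0.065 in mut cells at 6 h, LAMB1 from -0.072 to 0.053 in mut cells at 24 h and LAMA5 from -0.01 to 0.125 in mut cells at 72 h. For mut against WT these ranges were -0.278 to 0.001 for LAMB3 in solvent, -0.332 to 0.013 for LAMA1 and -0.022 to 0.061 for LAMA5 at 6 h, -0.07 to 0.2 for LAMA1 at 24 h, and -0.15 to 0.158 for LAMA1, -0.042 to 0.058 for LAMB1, -0.088 to 0.004 for LAMB2 and -0.122 to 0.001 for LAMC1 at 72 h. For the interaction they were -0.035 to 0.343 for LAMA1, -0.05 to 0.062 for LAMB1 and -0.066 to 0.001 for LAMC1 at 6 h, -0.018 to 0.118 for LAMA5 at 24 h and -0.026 to 0.097 for LAMC1 at 72 h. Members called in mut cells at 6 h numbered 1 with the replicate block, with or without TMM factors. For mut against WT in solvent there were 0 with clone sums or without series 27-2, and 0 to 2 when single libraries were left out. At 6 h there were 2 with clone sums or without series 1-2, and 2 to 4 without single libraries. At 24 h there were 4 with TMM factors, edgeR or DESeq2 and 5 with TMM factors plus block. The interaction at 24 h called 1 member with no low-count filter, with the compared groups alone, with clone sums or without series 27-2, 0 without series 1-2, 5 with the replicate block, 4 with TMM factors plus block, and 0 to 2 without single libraries, the 0 arising without mut solvent 1-2 or mut 24 h 1-2. At 72 h it called 2 with DESeq2, 4 with the block, 3 with TMM factors plus block, and 0 to 2 without single libraries. The shares of all genes called under these settings are not given here. These member counts therefore show only how the calls depend on the setting. The replicate block changed no call of a member other than those given here or beside the results. The share of LAMA3 and LAMB3 in plain CPM was 67.4% in WT solvent, 88.7% in WT at 72 h, 62.8% in mut solvent and 78.9% in mut at 72 h, and with longest-transcript lengths 90.4% in WT at 72 h and 69.5% in mut solvent. The causes of these shifts were not tested. At these totals LAMA4 was too low for any comparison, and 2 clones per genotype limit each comparison of genotypes.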
